A study of Mus musculus with 12 samples.

Results

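The genes of the proteasome were followed through the response of mouse bone marrow macrophages to lipopolysaccharide (LPS), the Gram-negative outer membrane component sensed by Toll-like receptor 4. A gene was a member if a probe set (the group of array probes that reports 1 transcript) carried its symbol alone and that symbol began with Psm, a letter from a to g and a number. Psmb8, Psmb9 and Psmb10, the catalytic subunits of the immunoproteasome, were left out, and each gene was read from its probe set with the highest mean signal. The rule found 46 genes out of 18193 with a probe set of 1 symbol, and 45 of them were among the 12914 genes whose signal was high enough to be tested. Of the 46, 44 encode a proteasome subunit, activator, inhibitor or assembly factor. The other two, Psmc3ip and Psme3ip1, only share the letters: they are named as interaction partners of a proteasome protein. Psmb11, the thymus subunit, was the member not tested, with signals of 0.80 to 14.4.

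The study used 12 arrays, 1 culture each, with 2 biological replicates in each of 6 groups. Wild-type (WT) macrophages and macrophages from IRAK4 kinase dead (KD) mice were each kept for 4 h without LPS, given LPS at 1 µg/ml for 1 h, or given LPS at 1 µg/ml for 4 h. IRAK4 is the kinase that joins the adaptor MyD88 below Toll-like receptors. All cultures of both strains grew in medium with serum and L-929 conditioned medium, and the labels name no genetic background, sex or age of the mice. The control cultures were harvested at 4 h, so the 1 h comparisons differ in time in culture as well as in LPS. Whether the 2 replicates came from separate animals is not stated, and p-values rest on how far apart the arrays of 1 group lay, which may be technical. The targeted gene, Irak4, had no probe set under its name and gives no check of the strains.

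The proteasome is the large protease that degrades proteins marked with ubiquitin. Its barrel-shaped core is built from outer alpha rings, which gate the entrance, and inner beta rings, which hold the active sites. A regulatory cap of a ring of ATPases, which unfold the substrate, and of non-ATPase subunits, which bind and remove ubiquitin, sits on the ends of the core, and activators such as PA28 and PA200 can take its place. In macrophages the proteasome degrades the inhibitors that hold NF-κB in the cytoplasm and produces peptides for display on MHC class I molecules. Its genes are known targets of the transcription factor NRF1, encoded by Nfe2l1, when proteasome capacity falls short.

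Signals are linear intensities, scaled on each array to the same trimmed mean of 150. They were compared as log2(signal + 4.4), a scale that understates changes of weak genes, and a gene was called higher or lower when limma's adjusted p was under 0.05. Macrophage markers were present (9 of 9 tested, summed signal 18502 to 26235 per array). Markers of T and NK cells summed to at most 55.0, of B cells to 45, of erythroid cells to 39.8, of dendritic cells to 98.6 and of neutrophils to 121.3. All 7 markers of the LPS response rose in both strains at both times. Markers of stromal cells, such as collagens, were measurable (7 of 7 tested) and summed to 3123 and 3191 on the WT arrays without LPS but to 1473 and 1779 on the KD arrays without LPS, and their part in the strain differences below was not tested. In such bulk samples, fewer cells of a type and less RNA per cell cannot be told apart. The median signal of an array was lower in WT (18.9 to 22.0) than in KD (24.2 to 26.9). KD unstimulated replicate 1 had the highest ratio of 3' to 5' control signal (log2 of 1.35 for Gapdh, against 0.81 to 1.17 on the other arrays).

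In WT macrophages LPS raised a minority of the proteasome genes, and by modest amounts. After 4 h, 11 of the 45 tested members were called higher, in 5 of the 7 roles: Psma6 and Psma2 of the alpha ring, Psmb6 and Psmb4 of the beta ring, the ATPase Psmc6, 5 non-ATPase genes (Psmd10, Psmd8, Psmd14, Psmd6 and Psmd11) and the activator Psme1. This was 24.4% of the members, where 6.95% of all 27931 tested probe sets were called higher. No subunit, activator, inhibitor or assembly factor gene was called lower (Psmc3ip was), where 10.2% of all probe sets were. The median log2 change of the members was 0.15, that of all probe sets -0.12, and 33 of 45 members had a positive change. Both arrays at 4 h lay above both arrays without LPS for 24 members and below them for 4, which leaves 62.2% of the members not overlapping against 57.7% of all tested probe sets. In the same comparison 2 of the 7 stromal markers were called lower, and their summed signal was 2246 and 2431 at 4 h; their part in the result was not tested. Psmd10 rose most, by 2.43-fold, and the other called genes rose by 1.23-fold to 1.70-fold. Leaving out WT unstimulated replicate 1 or 2 or WT LPS 4 h replicate 1 left 5 members called in either direction, leaving out WT LPS 4 h replicate 2 left 7, and a variance prior without a trend in signal left 4: Psmd10, Psma6, Psmb6 and Psmc6.

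After 1 h in WT, 4 members were called higher and 0 lower, where 2.89% of all probe sets were called higher and 3.23% lower. They were the activator Psme4, the non-ATPase genes Psmd14 and Psmd1 and the ATPase Psmc3. The median log2 change of the members was 0.16 (-0.03 over all probe sets) and 35 of 45 were positive. Only Psmd14 was called higher at both times. Between 1 h and 4 h, 6 members were called higher (Psmd10, Psma6, Psmc6, Psmb6, Psmd8 and Psmb4) and 4 lower (Psmd1, Psme4, Psmc3 and Psmc3ip), against 7.1% and 8.74% of all probe sets. So 3 of the 4 genes raised at 1 h fell again by 4 h. The 4 were chosen by the same 1 h arrays from which the fall is measured, so the fall alone does not show a passing rise. The rises of Psmd10 and Psma6 held with each array left out, while that of Psmb6 was lost without WT LPS 1 h replicate 1 (adjusted p = 0.0663), those of Psmc6 and Psmb4 in 3 fits each, always without a WT array at 1 h or 4 h (adjusted p 0.0553 to 0.0555 and 0.0783 to 0.202), and that of Psmd8 without replicate 1 of either (adjusted p 0.118 to 0.139). The count at 1 h fell to 1 or 0 without WT unstimulated replicate 1 or 2 and to 2 without either WT LPS 1 h array.

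In KD macrophages 1 member was called at 1 h and 3 at 4 h. At 1 h, 0 were higher and Psmg3 was lower, where 3.17% and 2.29% of all probe sets were called. At 4 h Psmd10 and Psma6 were called higher and Psmb3 lower, against 5.3% and 4.7% of all probe sets. From 1 h to 4 h 3 members were called higher (Psmg3, Psmd10 and Psma6) and 0 lower, against 4.55% and 3.88%; the rises of Psmd10 and Psma6 were lost without KD LPS 1 h replicate 1 or KD LPS 4 h replicate 2 (adjusted p 0.107 to 0.142 and 0.0591 to 0.0610). Of the 7 stromal markers, 3 were called higher at each time, with summed signals of 2489 to 3149.9 at 1 h and 2591 to 2916 at 4 h, and their part was not tested. The median log2 change of the members was -0.05 at 1 h and 0.05 at 4 h (-0.01 and -0.05 over all probe sets). At an unadjusted p under 0.05, 15.6% of the members passed at 1 h and 13.3% at 4 h, against 17.6% and 21.5% of all probe sets; in WT 31.1% passed at each time, against 18.6% and 27.6%.

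**Figure D1:**
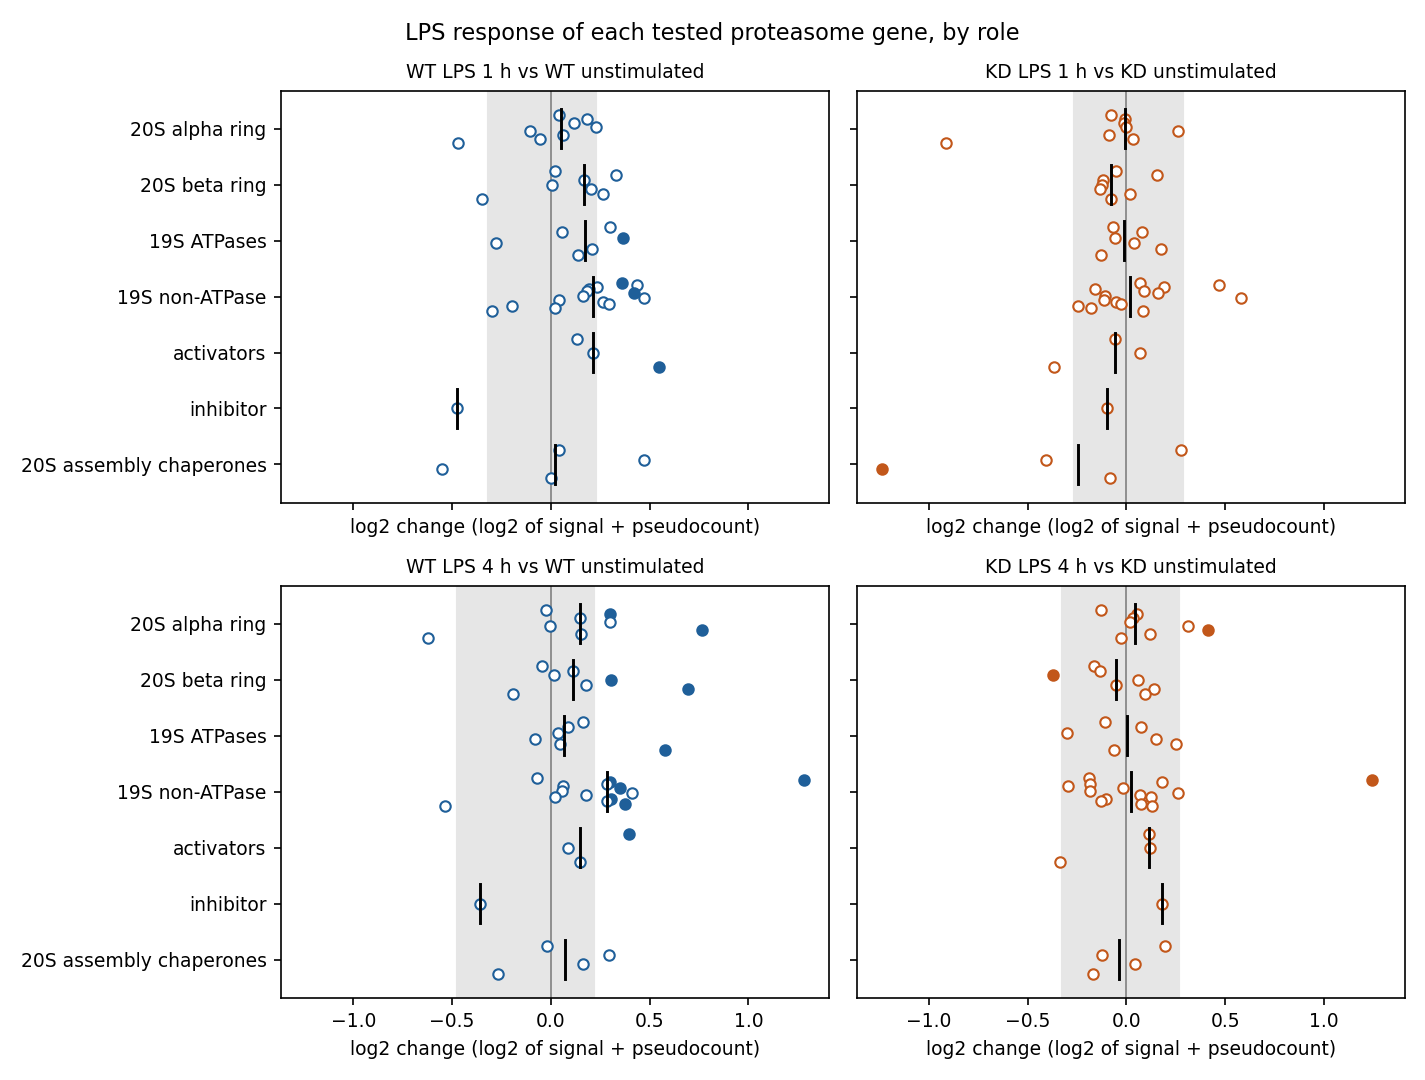
Log2 change of each of the 43 tested proteasome genes (circles, filled where called) after 1 h (top) and 4 h (bottom) of LPS in WT (left, blue) and KD (right, orange), by role; black bars are list medians and the grey band spans the interquartile range of all 27931 tested probe sets. In WT at 4 h 11 filled circles lie right of 0, led by a non-ATPase gene, Psmd10, at 1.28; in KD at 4 h only Psmd10 and Psma6 do.

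The promoters of 5 members are shown, the 4 that rose most in WT at 4 h and Psme4, which led at 1 h. Each line gives the bases before the transcript's start, 5' to 3' on the gene's own strand, from RefSeq in build GRCm38.p6, ended before the annotated start of the gene. Capitals mark matches to any of 5 motifs on either strand: TGACNNNGC, the core of the antioxidant response element that NRF1 and NRF2 bind; GAAANNGAA, the core of the interferon stimulated response element; GGGANNTTC, the core of a kappa B site; CCAAT, the NF-Y box; and GGGCGG, the GC box. The regions are chrX:140956712-140956961 on the minus strand for Psmd10 and, on the plus strand, chr12:55383972-55384221 for the upstream start of Psma6, chr11:70525107-70525323 for Psmb6, chr14:45329574-45329822 for Psmc6 and chr11:30771525-30771774 for Psme4.
Psmd10: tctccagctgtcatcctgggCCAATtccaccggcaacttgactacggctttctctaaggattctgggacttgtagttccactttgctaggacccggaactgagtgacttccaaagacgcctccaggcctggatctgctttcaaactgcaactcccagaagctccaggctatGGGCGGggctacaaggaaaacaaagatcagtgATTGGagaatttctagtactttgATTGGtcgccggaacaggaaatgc
Psma6: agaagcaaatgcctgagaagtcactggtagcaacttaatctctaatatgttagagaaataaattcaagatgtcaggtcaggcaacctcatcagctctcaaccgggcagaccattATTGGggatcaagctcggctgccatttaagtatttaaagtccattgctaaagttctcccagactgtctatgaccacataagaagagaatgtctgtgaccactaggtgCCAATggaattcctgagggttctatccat
Psmb6: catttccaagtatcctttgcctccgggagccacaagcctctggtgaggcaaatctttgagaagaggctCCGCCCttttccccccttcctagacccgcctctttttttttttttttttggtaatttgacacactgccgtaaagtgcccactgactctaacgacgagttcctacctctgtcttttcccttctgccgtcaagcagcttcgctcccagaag
Psmc6: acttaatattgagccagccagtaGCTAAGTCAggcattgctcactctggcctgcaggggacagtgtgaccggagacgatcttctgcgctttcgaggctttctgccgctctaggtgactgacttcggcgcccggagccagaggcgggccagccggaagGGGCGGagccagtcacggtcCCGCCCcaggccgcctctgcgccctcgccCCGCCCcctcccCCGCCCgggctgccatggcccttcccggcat
Psme4: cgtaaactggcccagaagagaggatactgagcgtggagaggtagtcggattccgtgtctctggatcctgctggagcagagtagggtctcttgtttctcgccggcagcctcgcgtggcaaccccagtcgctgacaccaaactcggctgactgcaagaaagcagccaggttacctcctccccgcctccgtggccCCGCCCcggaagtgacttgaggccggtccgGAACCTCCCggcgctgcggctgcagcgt

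Psmd10 carries 3 NF-Y boxes and a GC box, and Psma6 2 NF-Y boxes. Psmc6 carries 4 GC boxes and, 227 bases before its start, an antioxidant element core on the other strand. Psmb6 shows a GC box, and its antioxidant element core, 9 bases before the transcript's start, lies past the bases printed. Psme4 carries the only kappa B core found among the members, 28 bases before its start, and a GC box. Windows of 250 bases were found for 37 of the 45 tested members (40 windows) among 32841 windows of all genes. The antioxidant core was in 5 of the 40 windows (12.5%, against 10.2% of all windows), the interferon core in 3 (7.5% against 7.13%), the kappa B core in 1 (2.5% against 3.23%), the NF-Y box in 14 (35% against 33.9%) and the GC box in 21 (52.5% against 32.7%). Among the 12 windows of the 11 genes called higher in WT at 4 h, 9 held a GC box, 4 an NF-Y box, 2 an antioxidant core and 0 an interferon or kappa B core. A match is a string of letters and not a shown binding site.

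Of the 8 alpha ring genes, 2 were called higher in WT at 4 h (25%, against 6.95% of all probe sets). In KD 1 was called higher at 4 h (12.5%, against 5.3%), and none was called at 1 h in either strain. Among all probe sets with a mean signal of at least 1000, 17.4% were called higher in WT at 4 h and 11.2% in KD. Psma6, a subunit of the ring that gates the core, gave signals of 1502 and 1734 in WT without LPS, 1789 and 1585 at 1 h, and 2661 and 2833 at 4 h. In KD it gave 1989 and 1798 without LPS, 1686 and 1876 at 1 h, and 2404 and 2637 at 4 h. In both strains the arrays at 4 h stood above all others, and those at 1 h overlapped the controls. The log2 change at 4 h was 0.77 ± 0.10 (SE) in WT (limma adjusted p = 1.6e-05) and 0.41 ± 0.10 in KD (adjusted p = 0.0118). The difference between the strains, -0.35 with a 95% interval of -0.65 to -0.05, was not called (adjusted p = 0.228). The probe set read here carries the suffix for possible cross-hybridisation, and a second one without it rose by 0.72 in WT (adjusted p = 5.0e-05). The WT call held in each of the 12 fits with 1 array left out. The KD call was lost without KD unstimulated replicate 2 or KD LPS 4 h replicate 2 (0.34 to 0.48 over these fits). The mean of the gene's probe sets also ended the KD call at 4 h and that of the KD rise from 1 h to 4 h. A variance prior without a trend in signal ended both as well.

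Psma2, its ring partner, read 1088 and 1141 in WT without LPS, 1256.5 and 1272 at 1 h, and 1354 and 1389 at 4 h. The WT groups did not overlap, and the change at 4 h was 0.30 ± 0.09 (adjusted p = 0.0352). In KD the values stayed between 1108.5 and 1266.5 with overlapping groups. The WT call was lost when any of the 4 arrays compared was left out (adjusted p 0.090 to 0.208), with quantile normalization and with no filter. The 6 other alpha genes were not called after LPS in either strain. Psma8, a subunit known from testis, had signals of 6.20 to 61.4 and a change in WT at 4 h of -0.62 that was not called, the lowest of the ring.

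Of the 7 tested beta ring genes, 2 were called higher in WT at 4 h (28.6%, against 6.95% of all probe sets). In KD at 4 h 1 was called lower (14.3%, against 4.7%). Psmb6 encodes the subunit with caspase-like activity, which the immunoproteasome replaces by the product of Psmb9. Its signals in WT were 1440.2 and 1417 without LPS, 1593.5 and 1843 at 1 h, and 2346 and 2285 at 4 h, so each WT group lay above the one before. In KD they were 1421 and 1525, then 1434.5 and 1553, then 1524 and 1732, with overlapping groups throughout. The change at 4 h was 0.69 ± 0.10 in WT (adjusted p = 3.6e-05) and 0.14 ± 0.10 in KD (adjusted p = 0.454). The response was smaller in KD by 0.55 ± 0.14 on the log2 scale (KD minus WT, -0.55; limma adjusted p = 0.0351), and at 4 h KD lay below WT by 0.51 ± 0.10 (adjusted p = 0.00378). The rise in WT was called in each fit with 1 array left out. The difference of responses was called in 6 of those 12 fits and lost without either WT unstimulated array, either WT LPS 4 h array, KD unstimulated replicate 2 or KD LPS 4 h replicate 1 (adjusted p 0.0786 to 0.214). The gap at 4 h was lost without replicate 1 of either strain at 4 h (adjusted p 0.0568 to 0.0921).

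Psmb4, a non-catalytic beta subunit, read 1711 and 1888 in WT without LPS, 1880.1 and 1727.5 at 1 h, and 2159 and 2278 at 4 h. The change at 4 h was 0.30 ± 0.09 (adjusted p = 0.0264). In KD its signals ranged from 1819 to 2203, and it was not called. Leaving out WT unstimulated replicate 1 or either WT array at 4 h ended the call. The probe set read here carries the suffix for possible cross-hybridisation. Reading the dimmer one without a suffix also ended the call, as did quantile normalization and no filter. Over all alternatives the change was 0.23 to 0.44. The WT rise from 1 h to 4 h was also lost with the dimmer probe set and with the mean of both (0.16 to 0.37 over all alternatives). Psmb3, another non-catalytic subunit, moved the other way in KD: 2405 and 2450.3 without LPS, 2521 and 1989 at 1 h, and 1834 and 1921.5 at 4 h. Its WT signals, 1853 to 2107, included 1853 and 1888 without LPS, below both KD controls. The change at 4 h in KD was -0.37 ± 0.10 (adjusted p = 0.0194), and without LPS KD lay above WT by 0.38 ± 0.10 (adjusted p = 0.0307). Both calls were lost when any of the 4 arrays compared was left out. They were also lost with the mean of the gene's probe sets and with its probe set without a suffix for shared sequence. Over all alternatives the changes were -0.40 to -0.26 and 0.31 to 0.39. Psmb5 and Psmb7, the other catalytic subunits of the standard core, and Psmb1 and Psmb2 were not called in any of the 11 comparisons.

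Of the 6 ATPase genes, 1 was called higher in WT at 1 h (Psmc3) and another at 4 h (Psmc6), and none in KD. At each time this was 16.7%, against 2.89% of all probe sets at 1 h and 6.95% at 4 h. Psmc6 gave 1157.5 and 1367 in WT without LPS, 1355 and 1413 at 1 h, and 1874 and 1881 at 4 h. In KD it gave 1415.5 and 1499, then 1198 and 1480.1, then 1362 and 1424.5. The WT arrays at 4 h stood above every other array, and in KD the groups overlapped. The change at 4 h was 0.58 ± 0.11 in WT (adjusted p = 0.000741) and -0.06 ± 0.11 in KD (adjusted p = 0.803). The difference of responses was -0.64 ± 0.15 (adjusted p = 0.0273), and at 4 h KD lay below WT by 0.43 ± 0.11 (adjusted p = 0.0242). These values belong to 1 probe set: 2 dimmer Psmc6 probe sets changed by 0.05 and 0.04 in WT at 4 h (adjusted p = 0.912 and 0.960) and gave differences of 0.55 and 0.34. The difference of responses was also lost in 6 of 12 fits with 1 array left out, those without WT unstimulated replicate 1, either WT LPS 4 h array, KD unstimulated replicate 2 or either KD LPS 4 h array (adjusted p 0.0611 to 0.173). The gap at 4 h was lost without any of the 4 arrays compared (adjusted p 0.0913 to 0.180).

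Psmc3 read 1022 and 989.6 in WT without LPS, 1386 and 1211 at 1 h, and 1045 and 1019.6 at 4 h. Its KD signals were 1096 and 1106, then 1089.7 and 1027, then 857 and 931. The WT arrays at 1 h stood above all others. The change in WT was 0.36 ± 0.10 at 1 h (adjusted p = 0.0361) and -0.33 ± 0.10 from 1 h to 4 h (adjusted p = 0.0321). The 1 h call was lost in 5 fits with 1 array left out, those without either WT control, WT LPS 1 h replicate 1 or either WT LPS 4 h array (adjusted p 0.0521 to 0.213). The fall from 1 h to 4 h was lost without WT LPS 1 h replicate 1 or either WT LPS 4 h array (adjusted p 0.111 to 0.230).

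Of the 14 non-ATPase genes, 5 were called higher in WT at 4 h (35.7%, against 6.95% of all probe sets), 2 at 1 h (14.3%, against 2.89%) and 1 in KD at 4 h (7.14%, against 5.3%). Their median change in WT at 4 h was 0.29, and 12 of 14 were positive. The gene with the largest rise was Psmd10, which encodes gankyrin, an ankyrin-repeat protein that escorts ATPases during assembly of the cap and is not part of the finished particle. Its signals in WT were 193 and 177.5 without LPS, 227 and 280.3 at 1 h, and 473 and 442 at 4 h. In KD they were 141 and 165, then 180.2 and 252, then 337 and 402. In each strain the 3 groups did not overlap, in the same order of time. The change at 4 h was 1.28 ± 0.18 in WT (2.43-fold, adjusted p = 2.6e-05) and 1.25 ± 0.18 in KD (2.37-fold, adjusted p = 7.7e-05), and both calls held in every alternative and with each array left out. At 1 h the changes of 0.44 and 0.47 were not called (adjusted p = 0.175 and 0.150). The strains' responses at 4 h differed by -0.04, with a 95% interval of -0.56 to 0.49.

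Psmd14 encodes the enzyme of the cap that cuts ubiquitin chains from the substrate. It read 963 and 981.5 in WT without LPS, 1303 and 1299 at 1 h, and 1324 and 1159 at 4 h. In KD it read 1039.8 and 1097, then 1168 and 1224, then 1069.9 and 1039. All 4 WT arrays with LPS lay above both controls. The WT change was 0.42 ± 0.10 at 1 h (adjusted p = 0.0127) and 0.35 ± 0.10 at 4 h (adjusted p = 0.0171), and in KD 0.16 and -0.02 were not called. Each WT call was lost in 3 fits with 1 array left out: without either WT control, and without WT LPS 1 h replicate 2 at 1 h (adjusted p 0.0690 to 0.108) or WT LPS 4 h replicate 1 at 4 h (adjusted p 0.0718 to 0.231).

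Psmd1, a large scaffold subunit of the cap base, peaked at 1 h in WT: 1519 and 1646 without LPS, 1974 and 2085.5 at 1 h, and 1635 and 1391 at 4 h. The KD values were 1814 and 2079, then 2041 and 2026, then 1671.5 and 1731.5. The WT change was 0.36 ± 0.10 at 1 h (adjusted p = 0.0357) and -0.43 ± 0.10 from 1 h to 4 h (adjusted p = 0.00508). The first of these was lost in 8 of 12 fits with 1 array left out, all but those without a WT LPS 4 h or KD unstimulated array (adjusted p 0.0512 to 0.288), and the second in 1, without WT LPS 4 h replicate 2 (adjusted p = 0.108). Psmd8, a small lid subunit, read 1787 and 1682.5 in WT without LPS, 1649 and 1876 at 1 h, and 2309 and 2195 at 4 h. The KD arrays gave 1731 and 1886, then 1529.5 and 1668, then 1826 and 1978. The WT rise at 4 h was 0.38 ± 0.10 (adjusted p = 0.00866), and it was lost without WT unstimulated replicate 2 or WT LPS 4 h replicate 1 (adjusted p = 0.0901 and 0.0902).

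Psmd6 and Psmd11, lid subunits, rose by 0.30 each in WT at 4 h (adjusted p = 0.0255 and 0.0245) and were not called in KD. Both lost the call with quantile normalization and without any of several WT arrays: both controls and replicate 1 at 4 h for each gene, and replicate 2 at 4 h for Psmd6 (adjusted p 0.0595 to 0.188 and 0.0739 to 0.259). A second Psmd6 probe set changed by 0.05 in WT at 4 h. Psmd5 and Psmd9, which like Psmd10 assist assembly of the cap base, were not called in any comparison, and Psmd9 had a change of -0.54 in WT at 4 h. The 6 other non-ATPase genes were not called after LPS in either strain.

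Of the 3 activators tested, Psme1 was called higher in WT at 4 h and Psme4 at 1 h, and Psme3, the nuclear form of PA28, in neither. At each time this was 33.3%, against 6.95% of all probe sets at 4 h and 2.89% at 1 h. Psme4 encodes PA200, a single large protein that caps the core without using ATP. It read 709.6 and 659.8 in WT without LPS, 1073 and 934 at 1 h, and 798 and 721 at 4 h. In KD it read 1053 and 949.7 without LPS, 758 and 790.1 at 1 h, and 782 and 799 at 4 h. The KD controls overlapped the WT arrays at 1 h, and all 4 KD arrays with LPS lay below the KD controls. The change at 1 h was 0.55 ± 0.11 in WT (adjusted p = 0.00442) and -0.37 ± 0.11 in KD (adjusted p = 0.0589), and the difference of responses, -0.91 ± 0.16, was the only one called among the members at 1 h (adjusted p = 0.0155). Without LPS, KD lay above WT by 0.54 ± 0.11 (adjusted p = 0.00657), a contrast that uses the same control arrays. From 1 h to 4 h in WT it fell by 0.40 ± 0.11 (adjusted p = 0.0173), a call lost without WT LPS 1 h replicate 1 or WT LPS 4 h replicate 2 (adjusted p 0.153 to 0.162). The values come from a probe set whose suffix marks a match to several transcripts, and the 2 next brightest Psme4 probe sets, without a suffix, changed by -0.00 and 0.11 in WT at 1 h, with differences of responses of -0.18 and -0.21 (adjusted p = 0.847 and 0.828). Leaving out WT unstimulated replicate 2 ended the calls at 1 h in WT and between the controls (adjusted p = 0.0622 and 0.0657), and the difference of responses was lost without either WT control or without KD LPS 1 h replicate 1 (adjusted p 0.0597 to 0.103).

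Psme1, the alpha chain of the interferon-inducible activator PA28, read 619.6 and 666 in WT without LPS, 636 and 781 at 1 h, and 794 and 905 at 4 h. KD arrays gave 783 and 863, then 786 and 796, then 859 and 922. The WT arrays at 4 h lay above the WT controls, and the KD controls lay above them too. The WT change was 0.40 ± 0.12 at 4 h (adjusted p = 0.0259). It was lost without either WT control or WT LPS 4 h replicate 2 (adjusted p 0.0629 to 0.220). The partner chain of PA28 was read only by a probe set with several symbols and is no member.

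The inhibitor Psmf1, a protein that binds the core in vitro, was not called in any comparison. It read 142 and 121 in WT without LPS, 86.9 and 99.9 at 1 h, and 119 and 85.8 at 4 h. Its KD signals were 118 and 87.9, then 102 and 88.6, then 117 and 115. Among the 4 chaperones that pair the core's alpha subunits, 1 was called lower, Psmg3, in KD at 1 h (25%, against 2.29% of all probe sets). It read 78.1 and 104 in KD without LPS, 44.3 and 28.5 at 1 h, and 80.6 and 107.5 at 4 h. In WT it read 90.0 and 71.4, then 41.9 and 67.8, then 92.0 and 88.9. In both strains the arrays at 1 h were the lowest. The KD change was -1.24 ± 0.29 at 1 h (adjusted p = 0.0149) and 1.28 ± 0.29 from 1 h to 4 h (adjusted p = 0.00788), the WT change at 1 h was -0.55 ± 0.29 (adjusted p = 0.337), and the difference of responses was not called (-0.69, adjusted p = 0.588). Each KD call was lost in 2 fits with 1 array left out. Both ended without KD LPS 1 h replicate 2, the first without KD unstimulated replicate 2, the second without KD LPS 4 h replicate 2. In these 12 fits the changes were -1.52 to -0.96 and 1.00 to 1.57. Both calls were also lost with the mean of the gene's probe sets, and the 1 h call with only the arrays compared. Over all alternatives the changes shrank to as little as -0.34 and 0.05.

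**Figure D2:**
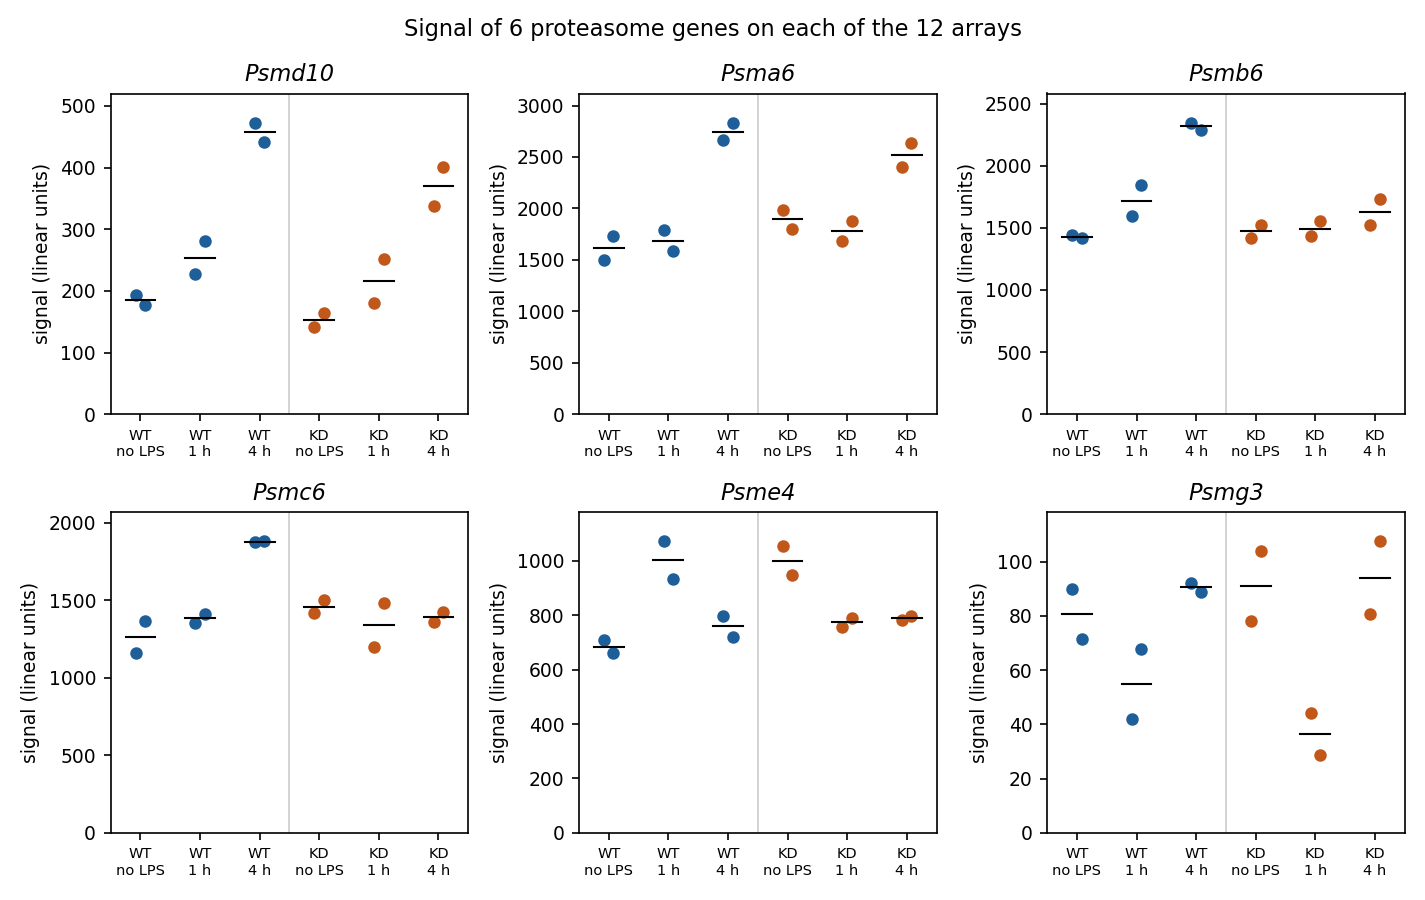
Signal (linear units, axis from 0) of Psmd10, Psma6, Psmb6, Psmc6, Psme4 and Psmg3 on each of the 12 arrays (points, WT blue, KD orange), with the mean of each group of 2 (bars). Psmd10 and Psma6 are highest at 4 h in both strains and Psmc6 in WT only. Psmb6 stands clear at 4 h in WT, while in KD its mean is highest at 4 h but the groups overlap. Psme4 is high in WT at 1 h and in KD without LPS.

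The 2 symbol matches that encode no subunit, activator, inhibitor or assembly factor were described apart. Psmc3ip, which encodes a factor of meiotic recombination, read 69.3 and 81.8 in WT without LPS, 92.7 and 98.0 at 1 h, and 42.5 and 43.6 at 4 h. In KD it read 74.2 and 109.9, then 129 and 161, then 120.3 and 95.5. It fell by 0.75 ± 0.24 in WT at 4 h (adjusted p = 0.0393) and lay 1.23 ± 0.24 above WT in KD at 4 h (adjusted p = 0.00439). The fall was lost without any of the 4 arrays compared (-0.86 to -0.64 over the 12 fits). The strain difference was lost without KD LPS 4 h replicate 1 (1.07 to 1.39). Of 11 other alternatives, 3 kept the call of the fall. Quantile normalization, no filter, only the arrays compared and the mean of the gene's probe sets were among those that ended it. The probe set read here carries the suffix for a match to several transcripts. Reading the one without a suffix ended both calls and that of the fall from 1 h to 4 h. Psme3ip1 was not called in any comparison.

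The strains were also set against each other directly. Without LPS, 2 members were called higher in KD (Psme4 and Psmb3) and 1 lower (Psma5), in total 6.67% of the members, against 5.25% of all probe sets called. Both KD arrays lay above both WT arrays for 20 members and below them for 10, so 66.7% of the members did not overlap against 46.5% of all probe sets, and at an unadjusted p under 0.05 24.4% passed against 17.5%. Among all probe sets with a mean signal of at least 1000, however, 14.8% were called higher in KD and 7.51% lower. Of the 22 members of that signal, 4.55% were called in each direction, below that background. Psma5, another alpha ring gene, read 1758 and 1480.3 in WT and 1142 and 1142 in KD. The call of this difference, -0.50 ± 0.12 (limma adjusted p = 0.0239), was lost without WT unstimulated replicate 1 or either KD control. It was also lost with the mean of the gene's probe sets and with its probe set without a suffix for shared sequence. Over all alternatives the difference was -0.66 to -0.37. At 1 h 0 members were called, where 1.11% of all probe sets were; at an unadjusted p under 0.05 5 members passed, or 11.1%, against 12.4% of all probe sets. At 4 h Psmb6 and Psmc6 were called lower in KD and Psmc3ip higher, against 5.37% of all probe sets. Of the 7 stromal markers, 4 were called lower in KD without LPS and 2 higher in KD at 4 h. Of the 9 macrophage markers, 3 were called higher and 1 lower in KD without LPS. At 1 h 1 of them was called lower in KD, and at 4 h 1 in each direction. The part of these markers in the strain differences was not tested.

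The difference of the 2 strains' responses, KD minus WT, was called for Psme4 at 1 h and for Psmb6 and Psmc6 at 4 h, all lower in KD. Over all probe sets 0.326% were called at 1 h and 3.07% at 4 h. The members' median difference was -0.15 at both times (0.03 and 0.07 over all probe sets), and 24.4% of the members at 1 h and 26.7% at 4 h were above 0, against 52.8% and 55.3% of all probe sets. Bright probe sets, with a mean signal of at least 1000, leaned the same way: their median differences were -0.05 and -0.08, with 42.2% and 38.9% above 0. The 22 members of that signal had medians of -0.17 and -0.24, with 22.7% and 13.6% above 0, so they leaned further than the bright background. Of the 11 genes called higher in WT at 4 h, 2 were called higher in KD and 2, Psmb6 and Psmc6, had a called difference. The 11 were chosen by their WT change, so their smaller KD changes alone do not show a weaker response. The WT control arrays enter every one of these differences. At 4 h 5 of the 7 stromal markers had a higher response in KD and 2 of the 9 macrophage markers, Cd14 and Cd68, a lower one, and their part in the result was not tested.

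**Figure D3:**
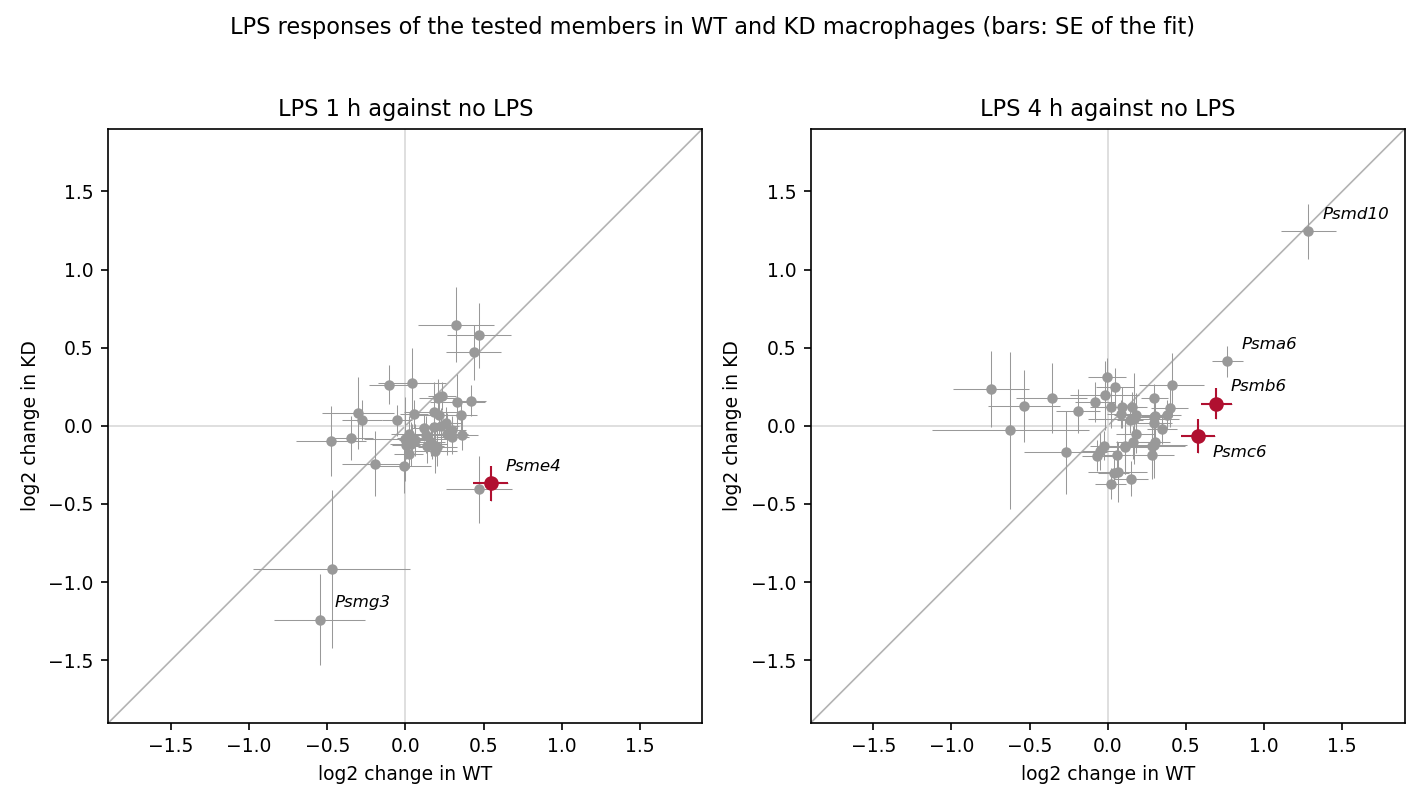
Log2 change in KD (vertical) against WT (horizontal) of the 45 tested members after 1 h (left) and 4 h (right) of LPS, with SE bars; red marks the members whose difference of responses was called, and the diagonal marks equal change. Psmd10 lies close to the diagonal at 4 h, with 1.28 in WT and 1.25 in KD, while Psmb6 and Psmc6 lie below it.

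Array by array, the members' median level, relative to each gene's mean over the 12 arrays, was lowest on the 2 WT arrays without LPS (log2 -0.11 and -0.08). It was 0.03 and 0.06 in WT at 1 h, and 0.10 and 0.04 in WT at 4 h. On the 6 KD arrays it lay between -0.05 and 0.04 with no separation of the groups. The medians of all tested probe sets moved the other way in WT, from 0.03 and 0.05 without LPS to -0.07 and -0.08 at 4 h. The pooled SD between replicates of the members' median was 0.04. Scaling the arrays to a common median moved the members' median response in WT at 4 h from 0.15 to 0.29, and that of all probe sets from -0.12 to 0.01.

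**Figure D4:**
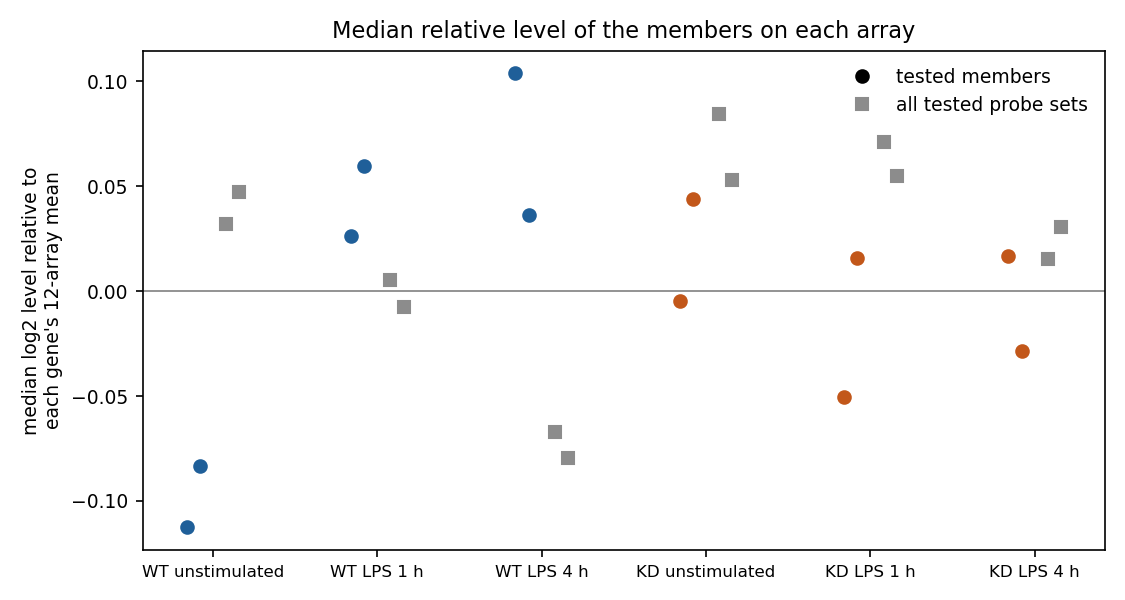
Median log2 level of the 45 tested members (circles, WT blue, KD orange) and of all 27931 tested probe sets (grey squares) on each array, relative to each gene's mean over the 12 arrays. The 2 WT arrays without LPS are the lowest for the members, at -0.11 and -0.08, and the KD arrays lie between -0.05 and 0.04.

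The members are brighter than most genes, and bright probe sets are measured with less error. Their median mean signal was 836 against 68.5 over all tested probe sets, and the median SE of a response was 0.12 against 0.30. Among the 2636 probe sets with a mean signal of at least 1000, 17.4% were called higher in WT at 4 h, and of the 22 members above that signal 9 were, or 40.9%. In WT at 1 h these shares were 10.8% and 13.6%, in KD at 4 h 11.2% and 4.55%, and in KD at 1 h 7.85% and 0%. Read against bright probe sets, the members' share of higher calls was thus above the background in WT at 4 h, near it in WT at 1 h and below it in KD. Signals of different probe sets were not compared with each other as levels.

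Of 30 other genes of the pathway, 23 had a probe set of 1 symbol, and all were tested. In WT at 1 h 2 were called higher and 0 lower: Zfand5, which encodes a proteasome-binding zinc finger protein, rose by 1.07 ± 0.10 (adjusted p = 4.3e-07), and Vcp, the segregase that extracts ubiquitinated proteins, by 0.49 ± 0.12. Over all probe sets, 2.89% were called higher in WT at 1 h, and 6.95% higher and 10.2% lower at 4 h. Of the 23, 6 were called higher and 3 lower in WT at 4 h. The higher ones were led by Nfe2l2, encoding the oxidative stress factor NRF2 (0.96 ± 0.11), Nfe2l1, encoding NRF1 (0.60 ± 0.11), Zfand5 (0.59 ± 0.10) and Rad23b, a shuttle for ubiquitinated proteins (0.43 ± 0.13), and included Pomp, the assembly factor of the core (0.43 ± 0.11). Lower were Zfand2a (-0.71 ± 0.11), Uchl5, a deubiquitinase of the cap (-0.56 ± 0.13), and Ubqln2, a shuttle (-0.41 ± 0.10). In KD Zfand5 was called at 1 h (0.73 ± 0.10), and at 4 h Nfe2l1 (0.70 ± 0.11), Nfe2l2 (0.44 ± 0.11) and Txnl1, a thioredoxin-like protein of the cap (0.40 ± 0.09), were called higher and Zfand2a lower (-0.57 ± 0.11). Txnl1 stood higher at 4 h in WT as well, at 2537 and 2606 against 2117 and 1835 without LPS. Usp14, a deubiquitinase, was lower in KD without LPS (-0.43 ± 0.11), and 1 of the 23 was called higher in KD than in WT at 4 h. No difference of responses was called among the 23.

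Nfe2l1 read 1669 and 1405 in WT without LPS, 1148 and 1377 at 1 h, and 2362 and 2282 at 4 h. KD arrays gave 1254 and 1277, then 1100.3 and 1224, then 2079 and 2050.2. In both strains the 4 h arrays stood above all others, as for Psmd10 and Psma6. Of the immunoproteasome genes, Psmb10 rose by 1.36 ± 0.15 in WT and 0.57 ± 0.15 in KD at 4 h, with KD 0.80 ± 0.15 above WT without LPS. Psmb8 rose in WT by 0.56 ± 0.14 at 1 h and 0.57 ± 0.14 at 4 h and was not called in KD, and Psmb9 was not called against the controls in either strain. Without LPS, Psmb8 read 436 and 364 in WT and 547 and 579 in KD, and 2 of the 3 genes were called higher in KD. No difference of responses was called among the 3 at either time.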

How the data were processed

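RNA from 12 macrophage cultures was measured on 1-colour Affymetrix mouse arrays of 45101 probe sets. The deposited values are linear intensities that the authors made with MAS5, per the labels; its version is not given in the sources used here, and the trimmed mean of each array is 150. Such scaling fixes each array's mean, so a change is relative to the array. With arrays there is no sequencing depth; having 2 per group limits the precision.

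From these, log2(value + 4.4) was taken (4.4 is the 20th percentile of all values). Probe sets above the array median on at least 2 arrays were kept (27931), and 1 mean per group was fitted on all 12 arrays with limma 3.58.1 in R 4.3.3, with a trended variance prior and Benjamini-Hochberg adjustment over all tested probe sets within each of 11 comparisons. Of all probe sets, 34958 have 1 symbol in the platform annotation, 932 several and 9211 none. The script was tested on simulated data. Members called in an LPS comparison or difference are given on every array, up to 4 per role by size of change; a role with none is given by its largest change. The members and lists were chosen with earlier results of these data known, and the signal limit of 1000 was set after seeing the data. Promoter windows, from RefSeq GRCm38.p6, were searched for 5 motifs. Alternatives changed the scaling, filter, pseudocount, variance prior, arrays fitted, probe set per gene, replicate block and arrays left out.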

Additional observations from a re-analysis of the deposited data

Results flagged for a closer look

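In 3 members the response to LPS differed between the strains by a test of the difference itself (limma, adjusted over all 27931 tested probe sets). Psme4 at 1 h responded less in KD, with a difference (KD minus WT) of -0.91 ± 0.16 (SE; adjusted p = 0.0155): it rose in both WT arrays and lay below the controls on both KD arrays. Psmc6 at 4 h had a difference of -0.64 ± 0.15 (adjusted p = 0.0273), and Psmb6 at 4 h one of -0.55 ± 0.14 (adjusted p = 0.0351). All 3 depend on single arrays: with 1 array left out, Psme4's difference was lost in 3 of 12 fits (adjusted p 0.0597 to 0.103), and those of Psmb6 and Psmc6 in 6 each (0.0786 to 0.214 and 0.0611 to 0.173). They also depend on the probe set for Psmc6, whose dimmer probe sets gave differences of 0.55 and 0.34, and for Psme4, whose next brightest probe sets gave -0.18 and -0.21 (adjusted p = 0.847 and 0.828).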

How the results depend on the processing

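Of 42 calls of a member in a comparison, 8 held in all 12 fits with 1 array left out, where the lone array of its group was assumed to vary like the others, and 6 held in every alternative: Psma6, Psmb6 and Psmd10 in WT at 4 h, Psma6 and Psmd10 in WT from 1 h to 4 h, and Psmd10 in KD at 4 h. The comparisons are given here in the order WT 1 h, WT 4 h, WT 4 h against 1 h, the same for KD, KD against WT without LPS, at 1 h and at 4 h, and the differences of responses at 1 h and 4 h. With 1 array left out, the members called ranged over 0 to 4, 5 to 12, 5 to 10, 0 to 2, 1 to 4, 0 to 3, 1 to 3, 0 to 0, 0 to 3, 0 to 1 and 0 to 2, and their median log2 change over 0.12 to 0.18, 0.10 to 0.19, -0.031 to 0.043, -0.065 to 0.020, -0.0054 to 0.046, -0.025 to 0.082, 0.058 to 0.15, -0.12 to -0.025, -0.080 to -0.033, -0.20 to -0.12 and -0.22 to -0.12. Without a trend in the variance prior the counts were 0, 4, 3, 0, 1, 0, 0, 0, 1, 0 and 0. With no filter 2 were called in WT at 1 h and 1 in the difference at 4 h; with only the arrays compared 2 in WT and 0 in KD at 1 h; with quantile normalization 7 in WT at 4 h (median difference at 4 h -0.20); with the filter at the 75th percentile 5 in KD at 4 h (median difference at 4 h -0.24). Scaling to a common median gave 5 called in the difference at 4 h and medians of 0.24, 0.29 and 0.076 in the 3 WT comparisons, -0.14 and -0.15 for KD against WT at 1 h and 4 h, and -0.24 and -0.27 for the differences. Averaging a gene's probe sets gave 0, 1 and 1 in the 3 KD comparisons, 0 between the controls, and 0 and 1 for the differences, with medians of -0.0010 in KD at 1 h and -0.031 and -0.10 for KD against WT at 1 h and 4 h. Probe sets without a suffix for shared sequence gave 6 in WT from 1 h to 4 h, 1 between the controls, 1 between the strains at 4 h and 0 in the difference at 1 h, with medians of 0.20 in WT at 1 h, 0.0060 in KD at 4 h, -0.12 and -0.14 for KD against WT at 1 h and 4 h, and -0.19 and -0.22 for the differences. The choice of probe set turned the sign of Psme4 in WT at 1 h (-0.00031), in WT from 1 h to 4 h (0.014) and between the controls (-0.095), and of Psmc6's difference at 4 h (0.084 and 0.34). Both pseudocounts, and counting only subunit, activator, inhibitor and assembly factor genes (an alternative chosen after seeing the data), kept each count within 1.5 times. Replicate numbers did not pair the arrays (15 pairs, correlations -0.07 to 0.04, 0 over 0.1), and with the replicate block 12 members were called in WT at 4 h and no count differed from that without it. The cause of these changes was not tested.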
